A study of Homo sapiens with 3 samples.

Results

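The nuclear genes of the mitochondrial respiratory chain and ATP synthase were followed in NCI-N87 cells (an established human line from a gastric cancer) after knockdown of FOXP4, a forkhead transcription factor. Members were the genes whose symbol begins with NDUF, UQCR or ATP5, with COX and a digit of 4 to 8, or is SDHA, SDHB, SDHC or SDHD, and whose mean over the 3 libraries reached 1 TPM, a unit that gives a gene's share of reads per unit of transcript length. Of 150 table entries with such symbols, 97 passed that limit and 53 did not, within 14429 genes that passed it in all. Among the 97, 84 are protein-coding genes and 13 are processed copies, pseudogenes made by reverse transcription of an mRNA.

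The study tested FOXP4 knockdown in these cells with 2 different siRNAs. One library came from NCI-N87 cells given siRNA1 against FOXP4, 1 from cells given siRNA2 against FOXP4, and 1 from cells given a scrambled siRNA, siScramble. All cells were transfected with Lipofectamine 2000, the labels call the first pair "Knockdown" and siScramble "WT", and no time after transfection is given. Each group is thus 1 library per reagent in 1 cell line, and nothing in the labels says that the libraries came from separate cultures, so any p-value reflects only how far these libraries differ, which may be technical. Both siRNA differences subtract the same siScramble library, so an SD over the 2 siRNAs leaves out any error in that library. An unusual siScramble value would shift both differences alike. In bulk RNA of this kind, fewer cells of a type and less RNA per cell cannot be told apart.

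The respiratory chain passes electrons from NADH (complex I) and succinate (complex II) through ubiquinone, complex III and cytochrome c to oxygen at complex IV, and pumps protons as it does so. ATP synthase, called complex V, uses the proton gradient to make ATP. All but complex II are built from subunits of both genomes: a few hydrophobic core subunits are encoded in mitochondrial DNA, while the other subunits and the assembly factors are encoded in the nucleus and imported. The nuclear genes are known as a group that NRF1, GABP (an ETS-family factor), YY1 and SP1 can bind near the start site.

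The libraries had similar depth, with about 18700000 reads for siRNA1, 19300000 for siRNA2 and 18500000 for siScramble, estimated from the steps between low TPM values. FOXP4 lies on the plus strand of chromosome 6 (41546426 to 41602384, GRCh38). The GC content of its longest transcript is 62.9%. Among all genes of at least 10 TPM with 55% GC and over, the median log2 difference was -0.50 with siRNA1 and -0.28 with siRNA2. The part of base composition in the FOXP4 level was not tested. FOXP4 measured 51.6 TPM with siRNA1 and 36.7 TPM with siRNA2, against 93.9 TPM with siScramble, so 55% and 39% of it remained. Its mean log2 difference was -1.09 ± 0.34 (SD, n = 2 siRNAs), and limma's adjusted p (Benjamini-Hochberg) was 0.9999. The epithelial markers EPCAM (1150, 813 and 1136 TPM with siRNA1, siRNA2 and siScramble), KRT8 (1025, 1930 and 1733 TPM) and KRT19 (781, 1616 and 1343 TPM) were abundant in every library. CLDN4 (332, 875 and 245 TPM), KRT18 (199, 361 and 202 TPM), CEACAM5 (14.5, 43.6 and 16.6 TPM) and CDH1 (5.86, 11.6 and 4.16 TPM) were at least 1.5-fold above siScramble with siRNA2. The median difference of the 7 epithelial markers was -0.03 with siRNA1 and 0.83 with siRNA2, and its part in the results below was not tested. Of 16 markers listed for immune cells, fibroblasts, endothelium and muscle, 4 passed the limit of 1 TPM and 3 have no entry in the table. COL1A2, DCN and CDH5 were at 0 throughout, PTPRC was at most 0.052 TPM, and LYZ, which gastric epithelium also makes, stood at 3325 to 4401 TPM. The other three that passed were the fibroblast marker COL1A1 (6.42, 22.3 and 13.1 TPM with siRNA1, siRNA2 and siScramble), the muscle marker DES (6.33, 3.94 and 8.19 TPM) and the macrophage marker CSF1R (2.26, 3.69 and 4.33 TPM). The 4 that passed summed to 4416 TPM with siRNA1, 3355 TPM with siRNA2 and 3600 TPM with siScramble, nearly all of it LYZ, and their part in the results was not tested.

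Promoter sequence is given first for 5 members. Shown are the 250 bases before the RefSeq start (build GRCh38.p14), 5′ to 3′ on the gene's own strand, for the 4 members with the lowest mean difference among those of at least 10 TPM, and for SDHD, which holds matches to motifs of 2 of the factors above. Capitals mark the NRF1 palindrome (the first run of capitals in SDHD) or the ETS motif (CCGGAAG or its reverse complement).
UQCR10, chr22:29767119-29767368, plus strand: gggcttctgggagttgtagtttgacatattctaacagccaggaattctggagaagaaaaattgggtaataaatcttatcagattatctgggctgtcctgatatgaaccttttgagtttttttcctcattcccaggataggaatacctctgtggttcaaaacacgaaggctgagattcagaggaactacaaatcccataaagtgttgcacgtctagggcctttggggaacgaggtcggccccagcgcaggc
ATP5G1, chr17:48892537-48892786, plus strand: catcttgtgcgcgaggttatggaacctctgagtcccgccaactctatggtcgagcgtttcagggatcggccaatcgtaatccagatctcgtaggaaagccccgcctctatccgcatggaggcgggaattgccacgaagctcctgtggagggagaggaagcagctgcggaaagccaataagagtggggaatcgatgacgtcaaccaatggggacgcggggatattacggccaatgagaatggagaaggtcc
NDUFA8, chr9:122159780-122160029, minus strand: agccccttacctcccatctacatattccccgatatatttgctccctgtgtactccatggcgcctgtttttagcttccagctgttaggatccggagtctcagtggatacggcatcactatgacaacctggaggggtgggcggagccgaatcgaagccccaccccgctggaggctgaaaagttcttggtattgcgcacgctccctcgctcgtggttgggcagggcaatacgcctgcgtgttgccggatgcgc
COX6B1, chr19:35648073-35648322, plus strand: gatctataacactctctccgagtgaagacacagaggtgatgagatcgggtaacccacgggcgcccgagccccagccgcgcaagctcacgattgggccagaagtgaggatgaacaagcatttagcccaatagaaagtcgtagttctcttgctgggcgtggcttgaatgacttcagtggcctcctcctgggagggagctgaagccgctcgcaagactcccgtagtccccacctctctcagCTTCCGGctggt
SDHD, chr11:112086623-112086872, plus strand: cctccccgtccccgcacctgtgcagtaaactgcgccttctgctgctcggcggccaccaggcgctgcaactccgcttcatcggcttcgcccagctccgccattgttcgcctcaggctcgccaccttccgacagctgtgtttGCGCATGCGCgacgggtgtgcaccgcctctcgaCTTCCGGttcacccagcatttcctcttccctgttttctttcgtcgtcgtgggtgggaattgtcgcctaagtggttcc

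UQCR10, ATP5G1 and NDUFA8 hold no match to any of the motifs searched in this window. COX6B1 holds 1 ETS match, 6 to 12 bases before the start. SDHD holds an NRF1 match 101 to 110 bases and an ETS match 71 to 77 bases before the start. Across the 84 coding members, 69 had an entry of this window in the RefSeq table. Both strands were searched, and the motifs do not contain one another. The ETS motif CCGGAAG stood in 17 of the 69 (24.6%), against 8.82% of 27305 promoters of the same length. The 27305 are all RefSeq entries, whether or not the gene passed 1 TPM here, so they are not matched to the members. The NRF1 palindrome, as printed in capitals for SDHD, stood in 3 members, ATP5C1, NDUFB4 and SDHD (4.35%), against 1.13% of all promoters. YY1 (AAGATGGC) stood in 1, ATP5J (1.45%, against 1.37% of all), and SP1 (GGGGCGGGG) in 8 (11.6%, against 15.4% of all). The forkhead motif TGTTTAC, the core that FOXP proteins can bind, stood in none of the 69, against 2.98% of all promoters. Exact letters in a short window describe the sequence and are not evidence of a bound or unbound site.

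Most coding members measured lower with both siRNAs than with siScramble, by small amounts, and none passed the test. Of the 84 coding members, 55 (65.5%) were below siScramble in both knockdown libraries, and 3 (3.57%) were above it in both, namely NDUFA2, UQCRQ and COX6C. Over all 14429 genes tested, 38.1% were lower with both siRNAs (38.8% of the protein-coding ones) and 24.5% were higher with both. The median log2 difference of the 84 was -0.16 with siRNA1 and -0.38 with siRNA2, beside 0.03 and -0.24 over all genes. Summed over the 84, the level was 9892 TPM with siRNA1 and 9613 TPM with siRNA2, against 12501 TPM with siScramble, or 79.1% and 76.9% of it. The remaining 26 coding members lay above siScramble with 1 siRNA and not with the other, 18 of them with siRNA1 and 8 with siRNA2. All of these counts rest on the same siScramble library.

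A difference of at least 1.5-fold below siScramble with both siRNAs was reached by 6 of the 84 (7.14%), beside 9.18% of all genes and 8.12% of protein-coding genes. No coding member was at least 1.5-fold higher with both, beside 6.45% of all genes. The share of members past 1.5-fold was thus near the background, while the share lower by any amount was above it. limma on log2(TPM + 1), with 2 libraries against 1 and Benjamini-Hochberg adjustment over all genes, called 0 of the 97 members and 0% of the 14429 genes. At an unadjusted p under 0.05 it listed 2 members, ATP5G1 and the processed copy COX5BP6, beside 2.97% of all genes. COX5BP6 was at 0 reads with both siRNAs and 4 with siScramble. It passed the limit of 1 TPM through siScramble alone, and its SD between the siRNAs was 0. Its listing is therefore no support for a change. In 35 of the 84 coding members the SD of the 2 siRNA differences was larger than the size of their mean.

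Rescaling changes how far below siScramble the members lie with siRNA2. Median-of-ratios scaling, which sets the typical gene to no difference, shifted the median of all genes with siRNA2 to 0.01 from the -0.24 above, and the members' median to -0.053. Both knockdown libraries together still left 41 of 96 members lower, beside 30.9% of all genes under that scaling. Mitochondrially encoded transcripts take a large share of TPM. With them left out, the members' medians were -0.10 with siRNA1 and -0.42 with siRNA2, and 57 were lower with both, beside 37.4% of all genes in that setting.

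**Figure D1:**
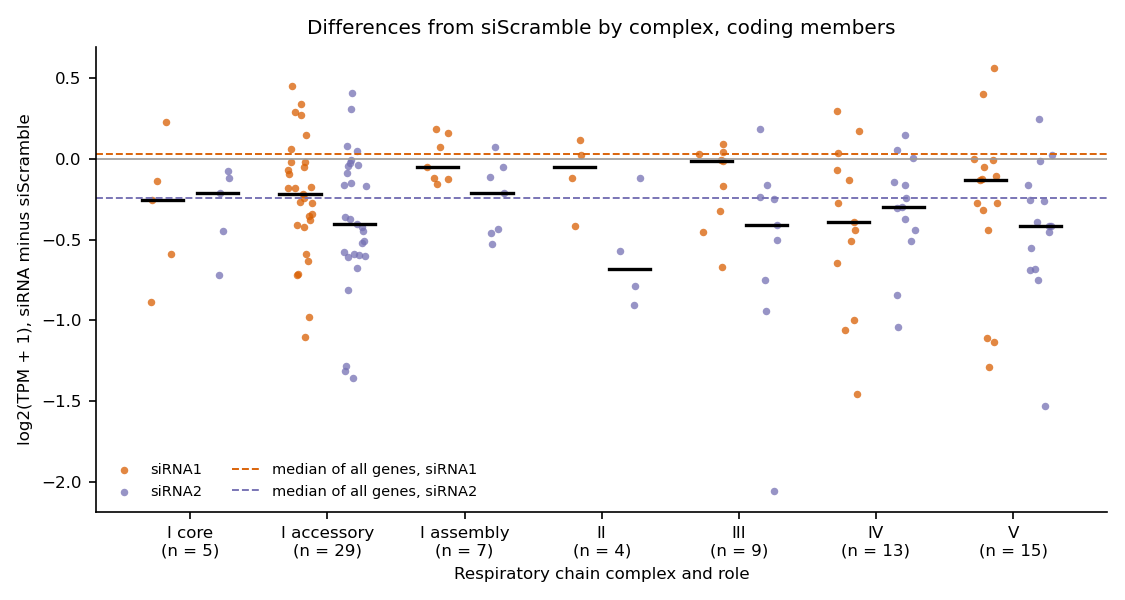
Difference in log2(TPM + 1) from siScramble for each coding member (1 point per gene and siRNA), by complex, with siRNA1 left of siRNA2, black bars at the group medians and dashed lines at the medians of all genes tested (0.03 with siRNA1, -0.24 with siRNA2). The bars of the complex I accessory genes and of complexes III, IV and V lie below 0 with both siRNAs, and points of every complex reach from above 0 to below -0.4 with at least 1 siRNA.

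Complex I, the NADH dehydrogenase, has 41 coding members here. The median difference of its 34 core and accessory subunit genes was -0.23 with siRNA1 and -0.39 with siRNA2, beside 0.03 and -0.24 over all genes. Of the 34, 24 (70.6%) were lower with both, beside 38.1% of all genes. The 7 assembly factor genes (NDUFAF1 to NDUFAF7) lay closer to siScramble with siRNA1, with medians of -0.05 and -0.21. Of these, 3 (42.9%) were lower with both, near the 38.1% of all genes. None was 1.5-fold lower with either siRNA, beside 17% of all genes with siRNA1 and 29.7% with siRNA2. The most abundant of them, NDUFAF2, measured 63.5, 69.2 and 65.8 TPM with siRNA1, siRNA2 and siScramble, which puts its values within 10% of each other. The difference between assembly and subunit genes was not tested.

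Core subunits of complex I carry its flavin, its iron-sulfur clusters and the quinone site. NDUFS8, an iron-sulfur subunit, measured 38.9 TPM with siRNA1 and 43.8 TPM with siRNA2, against 72.8 TPM with siScramble, a mean log2 difference of -0.80 ± 0.12 (SD, n = 2). It was the core gene farthest below siScramble, and both siRNAs gave close values against that shared library. NDUFV1, which binds the flavin, stood at 84.3, 117 and 127 TPM with siRNA1, siRNA2 and siScramble, so that the siRNA1 library alone was far from siScramble. NDUFS1, the largest subunit, showed no common direction, with 74.2, 60.0 and 63.2 TPM.

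The 29 accessory subunit genes of complex I ranged from -1.10 to 0.45 with siRNA1 and from -1.35 to 0.41 with siRNA2. NDUFS5 was the most abundant, at 665 TPM with siRNA1 and 530 TPM with siRNA2, against 801 TPM with siScramble. NDUFA8 is a twin-cysteine protein of the intermembrane space side. It measured 111 TPM with siRNA1 and 72.6 TPM with siRNA2, against 182 TPM with siScramble, and both libraries were well below siScramble at -0.71 and -1.31. NDUFA3, an accessory membrane-arm subunit, gave 61.5 and 80.0 TPM against 122 TPM with siScramble. NDUFB7, another twin-cysteine subunit, gave 153 TPM with siRNA1 and 220 TPM with siRNA2, against 329 TPM with siScramble. For NDUFA3 and NDUFB7 siRNA1 was the lower of the siRNAs, the reverse of NDUFA8. NDUFA2 was the coding member with the highest mean difference, with 8.56 TPM and 8.27 TPM against 6.0 TPM with siScramble, but these were only about 58, 57 and 42 reads. NDUFS4, an accessory subunit known for its link to Leigh syndrome, measured 105, 84.8 and 86.3 TPM, so only siRNA1 was above siScramble.

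Complex II, succinate dehydrogenase, is wholly nuclear-encoded and also works in the citric acid cycle. All 4 of its genes were lower with siRNA2 than with siRNA1, beside 64.3% of all genes. SDHA, the flavoprotein that oxidizes succinate, measured 63.7 TPM with siRNA1 and 45.1 TPM with siRNA2, against 85.2 TPM with siScramble. SDHB, the iron-sulfur subunit, was nearly level at 149, 135 and 147 TPM. SDHC and SDHD anchor the enzyme in the inner membrane and hold the quinone. SDHC measured 55.9 and 40.6 TPM against 60.9 TPM with siScramble, and SDHD, whose promoter is printed above, 81.6 and 43.3 TPM against 75.4 TPM. The complex thus had a median near 0 with siRNA1 (-0.05) and of -0.68 with siRNA2. SDHA has closely similar pseudogene copies, so its reads could be split between entries.

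Complex III, the cytochrome bc1 complex, held the member with the lowest mean difference among those of at least 10 TPM. UQCR10 is a small accessory subunit that lies beside the Rieske protein and cytochrome c1. Its level was 116 TPM with siRNA1 and 44.0 TPM with siRNA2, against 186 TPM with siScramble, so 62.7% and 23.7% remained. On the log2 scale this was -0.67 and -2.05, a mean of -1.36 ± 0.98 (SD, n = 2), with a spread between the siRNAs almost as large as the mean and limma's unadjusted p at 0.099. UQCRFS1, the Rieske iron-sulfur protein, measured 260, 197 and 262 TPM, below siScramble with siRNA2 and level with it with siRNA1. UQCRQ, the ubiquinone-binding subunit, was at 80.8 and 89.4 TPM against 78.7 TPM with siScramble. UQCRH, the hinge protein, measured 340, 359 and 426 TPM, and its near-identical copy UQCRHL 4.73, 3.56 and 5.46 TPM, where reads of one could be given to the other. Of the 9 genes, 6 (66.7%) were lower with both siRNAs, beside 38.1% of all genes.

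Complex IV, cytochrome c oxidase, has no nuclear catalytic subunit, since its hemes and redox-active coppers sit in mitochondrially encoded proteins. For its 13 nuclear genes the median difference was -0.39 with siRNA1 and -0.30 with siRNA2. Of these, 8 (61.5%) lay lower with both, beside 38.1% of all genes. COX6B1, which joins the monomers of the dimer, was the most abundant in siScramble and among the members most below it. It measured 462 TPM with siRNA1 and 515 TPM with siRNA2, both set against the same siScramble value of 924 TPM. Its mean difference was -0.92 ± 0.11 (SD, n = 2), with the siRNAs close to each other and limma's unadjusted p at 0.12. COX8A, a small transmembrane subunit, had 49.8 TPM with siRNA1 and 123 TPM with siRNA2, against 138 TPM with siScramble, so only siRNA1 was far below. COX7B gave the opposite picture, with 99.97 TPM with siRNA1 and 42.6 TPM with siRNA2, against 88.6 TPM with siScramble. COX6C, an accessory subunit, measured 116, 94.7 and 94.5 TPM, so siRNA1 was above siScramble and siRNA2 level with it.

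Several complex IV subunits exist as paralogs with tissue-restricted forms, and the forms found here were the ubiquitous ones. COX4I1 measured 162, 206 and 254 TPM with siRNA1, siRNA2 and siScramble, while COX4I2, the form known from lung, was at 0 in all 3 libraries. COX7A2 measured 129, 142 and 176 TPM and COX7A2L, a supercomplex factor, 69.1, 68.6 and 75.8 TPM. COX7A1, the heart and muscle form, had a mean of 0.641 TPM and reached 1.07 TPM with siRNA2, while COX6B2 and COX8C, the testis forms, stayed under 0.4 TPM in every library. COX6A1 stood at 20.7, 22.6 and 21.8 TPM, and its muscle form COX6A2 was not analysed here. NDUFA4, now placed in complex IV, measured 109, 92.5 and 132 TPM. NDUFA4L2, its hypoxia-linked paralog, measured 0.391, 1.23 and 1.89 TPM, which is about 5, 16 and 25 reads.

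**Figure D2:**
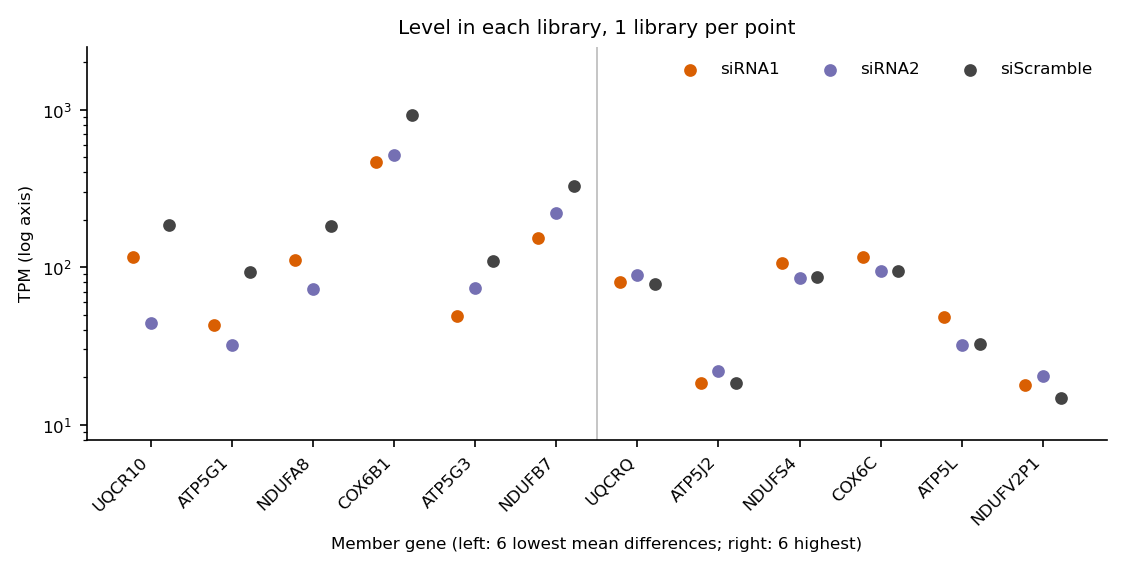
TPM (log axis) in each library, siRNA1, siRNA2 and siScramble from left to right, for the 6 members with the lowest and the 6 with the highest mean difference among members of at least 10 TPM, 1 library per point. In the left 6 both siRNA libraries lie below siScramble, while in the right 6 the 3 points lie close together and siScramble is the lowest or within 2 TPM of it.

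Complex V splits into the F1 head, which holds the catalytic sites, and the Fo part with its stalk, which conducts protons. All 5 F1 genes were lower with both siRNAs, with medians of -0.27 and -0.26, and 6 of the 10 Fo and stalk genes were, with medians of -0.12 and -0.49. Over all genes tested 38.1% were lower with both, with medians of 0.03 with siRNA1 and -0.24 with siRNA2. The F1 median with siRNA2 was thus near that of all genes. ATP5B, the catalytic beta subunit, was the most abundant member of all, at 1514 TPM with siRNA1 and 1686 TPM with siRNA2, against 1891 TPM with siScramble. ATP5A1, the alpha subunit, measured 140, 112 and 153 TPM. ATP5D, the delta subunit of the central stalk, was the F1 gene farthest apart between the siRNAs, at 216 TPM with siRNA2 and 105 TPM with siRNA1, against 258 TPM with siScramble.

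The c subunit, whose ring turns as protons pass, is made from 3 genes that encode the same mature protein. All 3 were lower with both siRNAs, beside 38.1% of all genes. ATP5G1 (ATP5MC1) measured 43.0 TPM with siRNA1 and 31.9 TPM with siRNA2, against 93.7 TPM with siScramble, so 45.9% and 34.0% remained. Its mean difference was -1.32 ± 0.30 (SD, n = 2) with an unadjusted limma p of 0.039, and the adjusted p (Benjamini-Hochberg) was 0.9999. It was the 1 coding member at least 2-fold lower with both siRNAs, beside 2.38% of all genes. ATP5G3 (ATP5MC3) measured 49.1 and 74.0 TPM against 109 TPM with siScramble. ATP5G2 (ATP5MC2), the c subunit gene nearest to siScramble, measured 76.7 and 78.0 TPM against 105 TPM. At the other end, ATP5L, the g subunit, had 48.5 TPM with siRNA1 and 32.2 TPM with siRNA2, against 32.6 TPM with siScramble. ATP5J2, the f subunit, had 18.2 and 21.9 TPM against 18.3 TPM. ATP5SL and ATP5S, which share the symbol but are not subunits, measured 64.2, 75.8 and 80.2 TPM, and 6.55, 3.5 and 5.32 TPM.

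The siRNAs differed from each other by 1.5-fold or more in some members, a smaller share than over all genes. Of the 84 coding members, 51 were lower with siRNA2 than with siRNA1 (60.7%, beside 64.3% of all genes). At 1.5-fold, siRNA2 was below siRNA1 in 14, beside 30.5% of all genes, and above it in 6, beside 12.9%. Among members of at least 10 TPM, the genes farthest below with siRNA2 were UQCR10 and COX7B, described above, then NDUFA5 (13 TPM with siRNA2 and 28.7 TPM with siRNA1, against 23.7 TPM with siScramble) and NDUFC2 (7.89 and 17 TPM, against 13.2 TPM). Those farthest above were COX8A and ATP5D, then NDUFB2 (13.6 TPM with siRNA2 and 6.17 TPM with siRNA1, against 10.8 TPM) and COX5B (277 and 175 TPM, against 250 TPM). Exons of other genes overlap 83.4% of the principal transcript of NDUFB2, 34.5% of that of COX8A and 19.0% of that of NDUFC2. The other genes named here have no such overlap. The part of overlap in these gaps was not tested. Counting error was estimated for a log2 difference from siScramble, not for the gap between the siRNAs. Its median was 0.059 with siRNA1 and 0.061 with siRNA2 for coding members of at least 10 TPM, and 0.29 with both below that level. For some of the genes named here it was larger, up to 0.18 for NDUFC2 with siRNA2, beside a gap of -1.01 for that gene. It covers read counting only.

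Base composition moved with the siRNA1 differences. Across the 84 coding members, GC content of the longest transcript had a Spearman correlation of -0.45 (Pearson -0.48) with the siRNA1 difference and of 0.05 (Pearson 0.04) with the siRNA2 difference. Over all genes the Spearman values were -0.61 and -0.10. These are descriptions across genes that share the same libraries. The low siRNA1 values of COX8A (58.6% GC), ATP5D (63.9%) and NDUFB7 (65%) stand among the GC-rich members, while ATP5G3 (41.0%) does not. Below 45% GC, the 27 members of at least 10 TPM had a median of -0.07 with siRNA1 and of -0.39 with siRNA2, beside 0.39 and -0.15 for all such genes, and 15 (55.6%) were lower with both, beside 13.7%. From 45% to 55% GC, 22 of 31 members (71.0%) were lower with both, beside 42.8% of genes. At 55% and over, 11 of 13 (84.6%) were, beside 66.3%. With the GC trend of all genes removed, 43 of the 84 were lower with both (beside 34.3% of all genes), the medians were -0.29 with siRNA1 and -0.14 with siRNA2. At least 1.5-fold lower with both were 3 of the 84 (NDUFA8, ATP5G1 and UQCR10), or 3.57%, beside 3.94% of all genes, a share near the background. Among members named by the rule given below and reported here, the mean differences of NDUFV1, SDHB and COX5B rose above 0, at most by 0.05. Other coding members crossed 0 by more, such as NDUFAF3 (-0.07 to 0.45), NDUFB11 (-0.19 to 0.21) and NDUFA11 (-0.36 to 0.12). NDUFAF4 went the other way (0.05 to -0.16). The part of base composition in the other values was not tested.

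**Figure D3:**
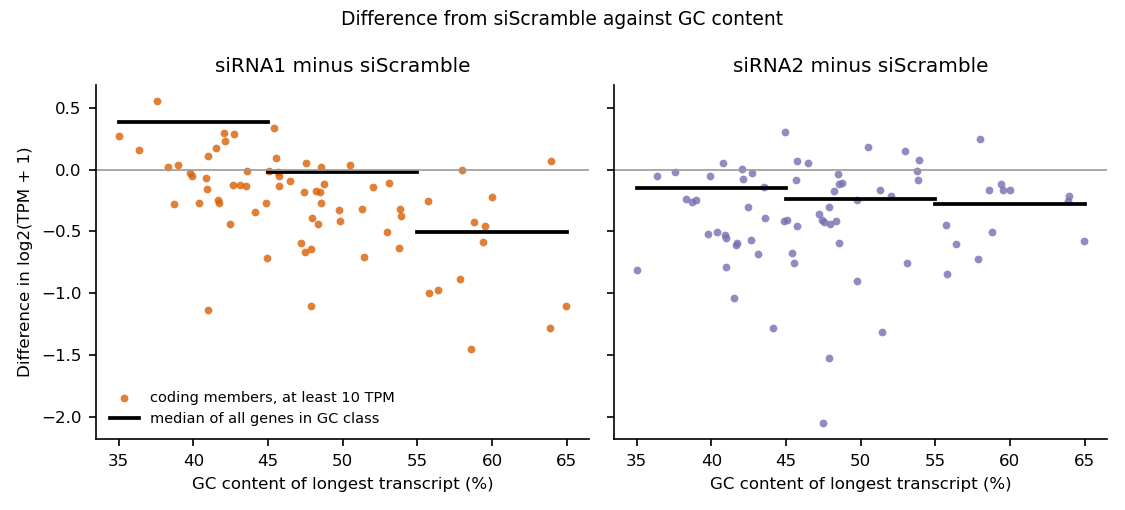
Difference in log2(TPM + 1) from siScramble against GC content of the longest transcript (%) for the 71 coding members of at least 10 TPM, with siRNA1 at left and siRNA2 at right, and black lines at the median of all genes of at least 10 TPM in each GC class (under 45%, 45% to 55%, 55% and over). With siRNA1 the points and lines slope down to the right, and with siRNA2 they lie about level.

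The mitochondrially encoded mRNAs of the same complexes split between the siRNAs. All 13 were above siScramble with siRNA1 and below it with siRNA2, so that none was on one side of it with both. Their sum was 80411 TPM with siRNA1 and 14120 TPM with siRNA2, against 51417 TPM with siScramble, or 156% and 27.5% of it. For complex I the 7 mitochondrial mRNAs had medians of 0.75 and -1.82, beside -0.23 and -0.39 for the nuclear core and accessory genes. For complex IV the 3 had medians of 0.65 and -2.15, beside -0.39 and -0.30 for the nuclear genes. The most abundant, MT-CO1, a catalytic subunit of complex IV, measured 14580, 1797 and 8757 TPM. MT-ATP8, an ATP synthase subunit, measured 27.6, 2.09 and 9.24 TPM, and MT-ND4L, of complex I, 3184, 303 and 1641 TPM. Libraries were made from poly(A) RNA, where the level of these mRNAs also depends on capture, and the part of capture was not tested.

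**Figure D4:**
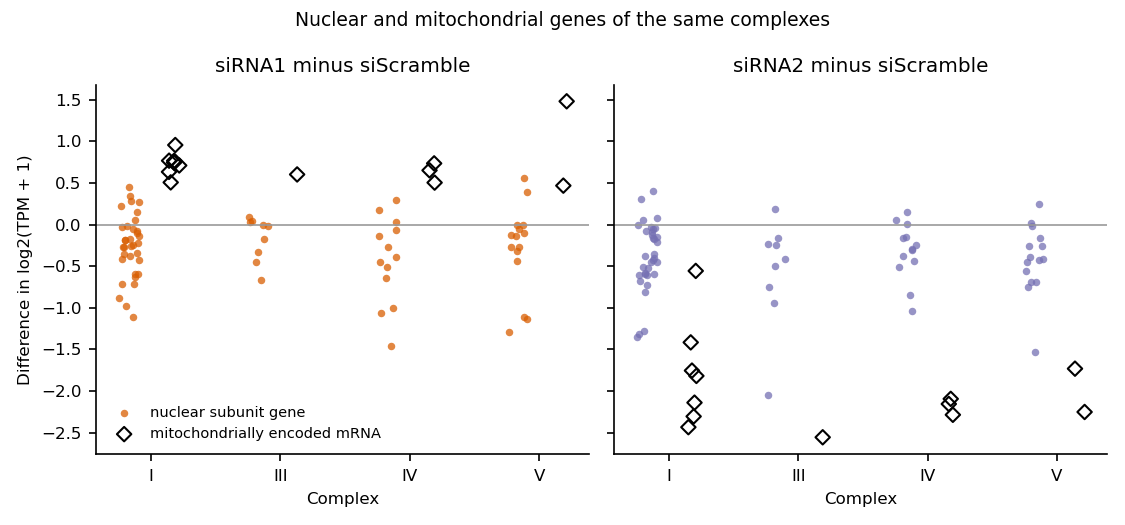
Difference in log2(TPM + 1) from siScramble for nuclear genes (points) and mitochondrially encoded mRNAs (open diamonds) of complexes I, III, IV and V, siRNA1 at left and siRNA2 at right. All 13 diamonds lie above 0 with siRNA1 and below 0 with siRNA2, while nuclear genes centre a little below 0 in both.

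Other genes of the pathway gave the following counts, with none called by limma. The shares over all genes tested, to be set beside each count, were 38.1% lower with both siRNAs and 24.5% higher with both. Of 43 measured assembly factors with other symbols, 31 were lower with both siRNAs and 2 were higher with both, with medians of -0.21 and -0.62. Among these, LRPPRC, which stabilizes mitochondrial mRNAs, measured 264, 194 and 189 TPM, COA3, a complex IV factor, 33.1, 19.1 and 50.2 TPM, and SDHAF1, a complex II factor, 57.2, 58.7 and 113 TPM. The regulators list, 19 genes that act on transcription of either genome's respiratory genes, had 7 lower and 3 higher with both. That is no larger a share than over all genes (38.1% and 24.5%). In that list POLRMT, the mitochondrial RNA polymerase, measured 35.9 TPM with siRNA1 and 29.8 TPM with siRNA2, against 71.5 TPM with siScramble, and it was the 1 regulator at least 1.5-fold lower with both. With the GC trend removed, its differences were -0.11 with siRNA1 and -0.89 with siRNA2, so it no longer met that size. MTERF1, a mitochondrial transcription factor, measured 16.7, 5.87 and 12.6 TPM, and MYC 156, 197 and 254 TPM. Of 14 genes listed for electron carriers and ubiquinone synthesis, 8 were lower with both. Among them was CYC1, a heme-bearing subunit of complex III, at 208, 313 and 396 TPM. ADCK3, a ubiquinone synthesis gene also called COQ8A, measured 22.8 and 6.14 TPM against 36.1 TPM with siScramble. Of 17 genes of the citric acid cycle and of pyruvate dehydrogenase, 9 were lower with both and none was higher with both. MDH2 measured 224, 238 and 318 TPM, IDH3A 18.6, 11.8 and 27.0 TPM, and CS, citrate synthase, 169, 54.4 and 176 TPM, where siRNA2 alone was low.

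Some of the genes with low levels, under the limit of 1 TPM or above it, are overlapped by exons of other genes. NDUFV2, a core complex I subunit that binds an iron-sulfur cluster, was under the limit at 0.891, 0.398 and 0.078 TPM with siRNA1, siRNA2 and siScramble, about 11, 5 and 1 reads. NDUFS7, another core subunit, was at 0.262, 0.745 and 0.733 TPM, and NDUFA7, an accessory subunit, at 0.311, 0 and 0.075 TPM. Exons of other annotated genes overlap 82.9% of the principal transcript of NDUFV2, 37.9% of that of NDUFS7 and 78.7% of that of NDUFA7. Among the 11 coding genes overlapped over more than 40%, the median of the mean level was 2.02 TPM and 7 were under 10 TPM. The 53 overlapped over at most 1% had a median of 79.6 TPM, and the 29 in between one of 59.6 TPM. NDUFB8 (71.7% overlapped), ATP5O (70.3%), NDUFA11 (67.0%), ATP5I (49.9%) and NDUFA13 (44.1%) are the low members of this kind, and NDUFB11 and NDUFA1 are overlapped over more than 40% yet stood at over 100 TPM. NDUFB2 (83.4%) and ATP5J2 (46.2%) lay between, at means of 10.2 and 19.5 TPM. All of the overlap of NDUFV2, NDUFB8, ATP5O, NDUFA11, NDUFA13 and ATP5J2 lies on the gene's own strand. For NDUFA7 the overlap on its own strand covers 75.9% of the transcript. That of NDUFS7, ATP5I, NDUFB2, NDUFB11 and NDUFA1 lies on the opposite strand. The labels name no step that marks strand, and such a step could not separate reads that overlap on the same strand. The part of overlap and of strand in these levels was not tested. Lengths matter as well: the merged exon length, which fits the TPM steps, was 1.77 times the principal transcript length in the median coding member and up to 8.98 times, and at least 3 times in 14, so an order of levels between genes is uncertain where a gene has long rare exons.

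**Figure D5:**
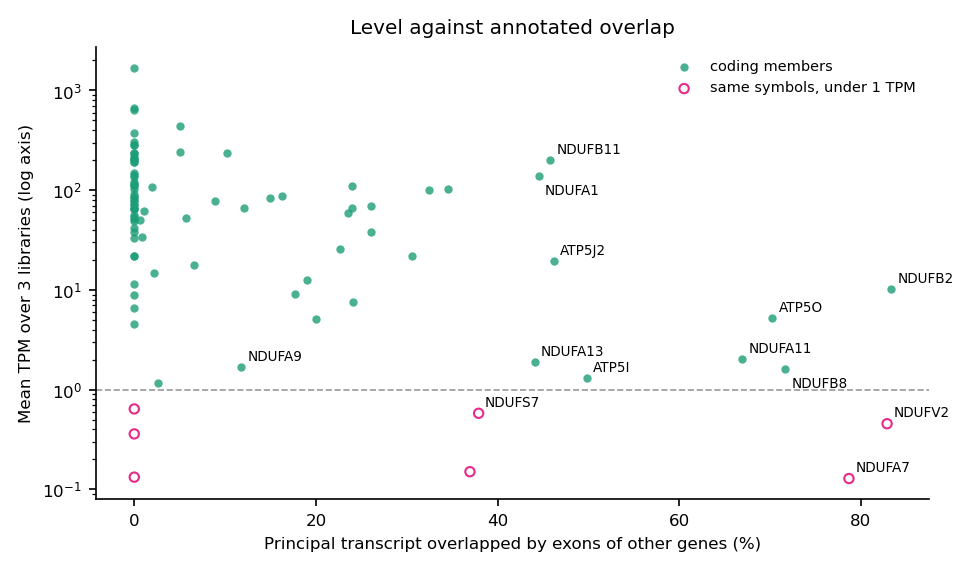
Mean TPM over the 3 libraries (log axis) against the percentage of the principal transcript overlapped by exons of other annotated genes, for coding members (filled) and coding genes with such symbols under 1 TPM (open), with a dashed line at 1 TPM. Most genes beyond 40% lie under 10 TPM, and NDUFB11 and NDUFA1 lie above 100 TPM.

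The 13 processed copies held the values farthest from siScramble, at few reads. Their medians were 0.26 with siRNA1 and 0.02 with siRNA2, with 4 lower and 6 higher with both. Over all genes 38.1% were lower and 24.5% higher with both. The 4 members at least 1.5-fold higher with both siRNAs were all such copies, beside 6.45% of all genes. They were ATP5C1P1, ATP5G1P4 (about 9, 16 and 4 reads with siRNA1, siRNA2 and siScramble), ATP5HP4 (about 6, 5 and 2 reads) and UQCRHP2. ATP5C1P1 measured 9.57 and 6.51 TPM against 3.32 TPM with siScramble (about 39, 27 and 14 reads). NDUFV2P1, the only copy in the list of highest members of at least 10 TPM, measured 17.9, 20.5 and 14.8 TPM. COX5BP6 was at 0 with both siRNAs and at 4.03 TPM with siScramble, which is 4 reads, and UQCRHP2 was at 1.52 and 1.5 TPM with the siRNAs, 2 reads each, and at 0 with siScramble. These copies passed the limit through one side only, and reads of a parent gene could be given to any copy. Just inside the limit of 1 TPM by mean level stood UQCRHP2 (1.01 TPM), NDUFA5P11 (1.05 TPM) and NDUFA4L2 (1.17 TPM). Just outside stood NDUFA6-AS1 (0.776 TPM), NDUFV2-AS1 (0.700 TPM) and COX7A1 (0.641 TPM). Of the 53 entries under the limit, 40 are pseudogenes, 10 are coding genes or a readthrough of 2 genes, and 3 are antisense or other noncoding RNAs.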

How the data were processed

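Poly(A) RNA of NCI-N87 cells was sequenced in 3 libraries, 2 with siRNAs against FOXP4 and 1 with siScramble. The authors deposited 1 table of TPM per gene symbol. The build was GRCh38 (hg38), per the submitters' processing notes. The aligner, quantifier and annotation are not given in the sources used here. Columns summed to 998717, 998406 and 998273 TPM for siRNA1, siRNA2 and siScramble.

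Values were compared as log2(TPM + 1), which understates the change of low genes. Genes whose 3-library mean reached 1 TPM were tested with limma 3.58.1 in R 4.3.3 (intensity trend, Benjamini-Hochberg over 14429 genes, threshold 0.05, 1 residual degree of freedom, the lone siScramble library assumed to vary like the siRNAs). Depth was estimated from TPM times merged exon length: 92.8%, 92.8% and 93.0% of low values in siRNA1, siRNA2 and siScramble lay within 0.1 of a whole read, and 61 of 63 member values between 0.5 and 100 reads did. Estimated reads were used for counting error only. Positions, gene types, GC and overlaps came from GENCODE 29, in which all 97 members matched. The GC trend was a lowess curve with span 0.3. Promoters came from RefSeq (GRCh38.p14).

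Members, lists and tests were chosen with earlier results of these data known. Named genes were FOXP4, the most abundant member of each class, the 6 lowest and 6 highest by mean difference and the 4 most different between siRNAs each way (all of at least 10 TPM), the SDH genes, paralog groups, catalytic subunits and 3 genes of each pathway list. Values of 1 gene under this rule are not reported here. Genes outside that rule were named after their values were seen. They were the overlapped genes, the genes near 1 TPM, NDUFA2, NDUFA3, NDUFAF3, NDUFAF4, ATP5S, ATP5SL, ATP5J, GABPA, TFAM and the processed copies. Protein-coding genes only, and the forkhead motif, were added after seeing the data. The alternatives changed the pseudocount, the filter on low values, the scaling, the GC trend and the libraries used.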

Additional observations from a re-analysis of the deposited data

How the results depend on the processing

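limma called 0 members in all 8 alternative settings that allow a test (pseudocounts 0.1 and 5, a mean of at least 10 TPM, no filter, median-of-ratios scaling, mitochondrial genes left out, GC trend removed, protein-coding genes only), and between 2 and 11 members had an unadjusted p under 0.05. Over all genes it called 93 at a mean of at least 10 TPM, 9 with mitochondrial genes left out, 92 among protein-coding genes only (a setting added after seeing the data) and 0 in the other settings. The members' median with siRNA2 moved to -0.053 under median-of-ratios scaling and -0.12 with the GC trend removed, against -0.36 as deposited. The median of siRNA2 minus siRNA1 changed sign, from -0.08 to 0.16 under median-of-ratios scaling and to 0.18 with the GC trend removed. Members lower with both siRNAs numbered 59 of 97, beside 38.1% of all genes. Over these settings they numbered from 41 of 96 (median-of-ratios scaling) to 68 of 130 (no filter), beside 30.9% and 35.6% of all genes. Members at least 1.5-fold lower with both numbered 7 of 97, beside 9.18% of all genes. They numbered 13 of 130 with no filter (beside 8.29%), 4 of 96 under median-of-ratios scaling (6.66%) and 4 of 97 with the GC trend removed (3.94%). Members at least 1.5-fold higher with both numbered 4, beside 6.45% of all genes. They numbered 0 with pseudocount 5, 0 at a mean of at least 10 TPM and 0 among protein-coding genes. With siRNA2 left out, 69 members were lower and 20 at least 1.5-fold lower, beside 6911 and 2456 of all 14429 genes. With siRNA1 left out, 78 were lower and 23 at least 1.5-fold lower, beside 9375 and 4284. Either way 4 members were at least 1.5-fold higher, beside 2374 genes with siRNA1 and 1846 with siRNA2. limma cannot be run on the 2 libraries that remain. Among the members named by the rule above and reported here, some mean differences changed sign. With the GC trend removed these were SDHB (to 0.05), COX5B (0.05) and NDUFV1 (0.03). Under median-of-ratios scaling they were SDHB (0.09) and COX6A1 (0.12). Other members also changed sign. Except where the construction of a setting shows it, the cause was not tested. No paired analysis was possible because the siScramble group has 1 library. The depth limits members under 10 TPM, where counting error of a log2 difference reached 1.18 in coding members and 2.45 in the processed copy ATP5EP2, leaving out copies at 0 reads.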

Other observations

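The mitochondrial ribosomal protein genes, which build the ribosome that translates the mitochondrially encoded subunits, were set beside the members. Of 73 measured, 44 (60.3%) were lower than siScramble with both siRNAs and 5 were higher with both, beside 38.1% and 24.5% of all genes. Their medians were -0.22 with siRNA1 and -0.46 with siRNA2, and 8 (11.0%) were at least 1.5-fold lower with both, beside 9.18% of all genes. limma called none of them at an adjusted p under 0.05 (Benjamini-Hochberg), and 1 had an unadjusted p under 0.05. GABPA, which encodes the DNA-binding part of GABP and lies head to head with ATP5J, measured 52.0 TPM with siRNA1 and 28.9 TPM with siRNA2, against 37.8 TPM with siScramble. ATP5J, the coupling factor 6 subunit of the ATP synthase stalk, measured 66.0 and 41.8 TPM, against 71.1 TPM with siScramble. TFAM, which packages mitochondrial DNA, measured 119 TPM with siRNA1 and 59.2 TPM with siRNA2, against 102 TPM with siScramble.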
